A study of Homo sapiens with 4 samples.

Results

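Neuroligins and neurexins are cell surface proteins known from contacts between nerve cells. The 6 genes described here, NLGN1, NLGN2, NLGN3, NLGN4X, NRXN2 and NRXN3, were taken by name from a deposited table of 60544 genes. NLGN4X was selected on its log2 fold change between the same libraries, and the others as its relatives, with their values known. Levels and changes of the members are therefore a description, without a test. Poly(A) RNA was sequenced from PC3, a long-established cell line of human prostate cancer. The control group, labelled shNC, and the group labelled sh812 had 2 libraries each. Per the series design the contrast is METTL3 knockdown against control, and sh812 was read as the knockdown because it is the only label besides shNC. METTL3 is the catalytic subunit of the enzyme that writes N6-methyladenosine on messenger RNA. No other treatment is labelled in either group, no clone or infection is described, and no label says that the 2 libraries of a group came from separate cultures. P-values therefore measure the spread between these libraries, which may be technical.

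Neurexins sit mainly on the sending side of a synapse and neuroligins on the receiving side, where the extracellular parts of both bind each other across the gap. The extracellular part of a neuroligin resembles acetylcholinesterase without its activity. Inside the cell, the last residues of a neuroligin bind PDZ domains of scaffolds such as PSD-95, the product of DLG4, and those of a neurexin bind CASK. NLGN1 is known mainly from excitatory synapses, NLGN2 from inhibitory ones, and NLGN3 from both. NLGN4X is the X-linked human gene of a pair with a near-identical Y-linked copy, NLGN4Y. Neither family is known chiefly for a role in prostate epithelium.

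The ends of the coding sequences are shown because they encode the scaffold-binding tails that set the families apart. They were read from GENCODE 29 transcripts, 5′ to 3′, and cover the last 60 coding bases and the stop codon. Capitals mark the last 4 codons and the stop codon.
NLGN1: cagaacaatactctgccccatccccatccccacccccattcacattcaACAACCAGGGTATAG
NLGN2: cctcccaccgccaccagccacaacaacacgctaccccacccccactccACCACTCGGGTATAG
NLGN3: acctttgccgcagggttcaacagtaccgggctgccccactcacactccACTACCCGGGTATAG
NLGN4X: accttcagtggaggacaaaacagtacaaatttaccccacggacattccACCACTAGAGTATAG
NRXN2: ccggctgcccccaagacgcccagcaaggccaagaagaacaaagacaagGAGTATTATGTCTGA
NRXN3: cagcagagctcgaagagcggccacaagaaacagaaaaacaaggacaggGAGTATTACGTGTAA
Over the whole coding sequence, the 4 neuroligins shared 65.7% (NLGN1 with NLGN2) to 73.0% (NLGN3 with NLGN4X) of their aligned bases, and NRXN2 and NRXN3 shared 71.4%. NLGN4X and NLGN4Y shared 97.1%. Of the 5721 windows of 150 bases, the read length, in the NLGN4X transcript, 216 (3.78%) occurred without a mismatch in an NLGN4Y transcript. How the counting treated reads that match both genes is not given in the sources used here, so the NLGN4X count is uncertain by reads from such windows.

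The libraries held 31450648 to 37041330 counts. METTL3 fell to 18.7% of its control level in the libraries labelled sh812, from 44.3 and 43.6 CPM (the usual unit for counts scaled to a common library size) to 7.66 and 8.75 CPM. This was a log2 fold change of -2.42 with SE 0.11, lower in 2 of 2 libraries (adjusted p = 5.54e-14). Adjusted p-values here and below are Benjamini-Hochberg values from the quasi-likelihood test of edgeR. Of the 6 epithelial markers, all had a mean of at least 1 CPM, as did 4 of 12 neuron markers, 4 of 6 prostate luminal markers and 1 of 6 astrocyte and oligodendrocyte markers. KLK2 and KLK3, defining markers of prostate luminal cells, and the neuron marker DCX had 0 counts in all 4 libraries. The summed neuron markers were 323 and 333 CPM in shNC and 429 and 434 CPM in sh812, of which NEFL made up 314 and 417 CPM on average. Of the 6 neuron markers tested, 2 were called, both higher in sh812: NEFL (log2 fold change 0.41, adjusted p = 3.2e-05 in edgeR) and MAP2 (0.89, adjusted p = 0.037), the latter on 46 to 130 counts in a library. The log2 fold change was above 0 for 4 of the 6 tested neuron markers and below 0 for the other 2. SYT1 had 242 to 344 counts and TUBB3 45 to 63, while SYP, SNAP25 and RBFOX3 had at most 29. Other lists also held calls. Of 6 epithelial markers tested, 3 were called, all higher, and of 4 prostate luminal markers tested, 2 were called, both lower. Of 3 astrocyte and oligodendrocyte markers tested, 1 was called, higher. Over all 16802 genes tested, 5.43% were called higher and 5.42% lower. Summed prostate luminal markers were 30.7 and 32.4 CPM in shNC and 12.9 and 15.3 CPM in sh812. The part of cells with these markers in the results was not tested. In bulk RNA, fewer cells with a transcript and less transcript per cell cannot be told apart.

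Counts of 2 were listed 9872 times and counts of 1 only 4007 times. Among the 37477 values from 1 to 20 over all genes, 69.8% were even. The sources used here do not say whether the mates of a read pair were counted separately, and a low count may therefore stand for fewer molecules than its size.

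NLGN2, the neuroligin known from inhibitory synapses, was the most abundant member. It had 1664 and 1295 counts in shNC and 1292 and 1364 in sh812. Per library this was 43.9 and 40.9 CPM in shNC, and 36.8 and 38.1 CPM in sh812. Both sh812 libraries lay below both shNC libraries, by a margin smaller than that of NLGN4X. The group means were 42.4 ± 2.07 and 37.5 ± 0.926 CPM (SD, n = 2), and the log2 fold change was -0.18 (SE 0.08). NLGN2 was not among the genes with an adjusted p under 0.05. Its model spans chromosome 17 from 7404874 to 7419860 on the plus strand in GENCODE 29 (GRCh38), and no other annotated gene overlaps it.

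NLGN4X had the next highest level in shNC, and in both groups per kb of exon, and showed the largest difference between the groups among the members. It had 373 and 328 counts in shNC, and 167 and 132 in sh812. Per library this was 9.83 and 10.4 CPM in shNC, and 4.76 and 3.69 CPM in sh812. The groups did not overlap, and the highest sh812 library lay below both shNC libraries by more than the gap within either pair. The mean went from 10.1 ± 0.380 to 4.22 ± 0.756 CPM (SD, n = 2), which is 41.8% of the control level, and the log2 fold change was -1.26 (SE 0.17). NLGN4X was the 1 member with an adjusted p under 0.05 among the 5 that could be tested. Over all 16802 genes tested, 10.8% had such a p, and 5.42% had it with a lower level in sh812. The comparison was used in choosing the members, so nothing is read from that count.

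The position of NLGN4X is chromosome X, from 5840637 to 6228863, on the minus strand. A small nucleolar RNA gene model, RF00322, lies within it without touching its exons and had 0 counts in all 4 libraries. The nearest tested protein-coding genes were examined after the NLGN4X values were seen. On the higher-coordinate side, PUDP, a pseudouridine phosphatase gene 820 kb away, was higher in sh812 (log2 fold change 0.29, SE 0.09, adjusted p = 0.037 in edgeR). STS, the steroid sulfatase gene 991 kb away, rose by 0.72 on the log2 scale (SE 0.08, adjusted p = 5.51e-07 in edgeR), from 37.6 ± 0.323 to 62.2 ± 1.21 CPM (SD, n = 2). PNPLA4 on that side, and PRKX, ARSD and CD99 on the other, had log2 fold changes of -0.08, -0.05, 0.10 and -0.13, and none of these 4 was called. PUDP and STS were the neighbours called higher, as were 5.43% of all genes tested. None of the 6 neighbours was called lower, against 5.42% of all genes tested, and nothing is read from so small a count.

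**Figure D1:**
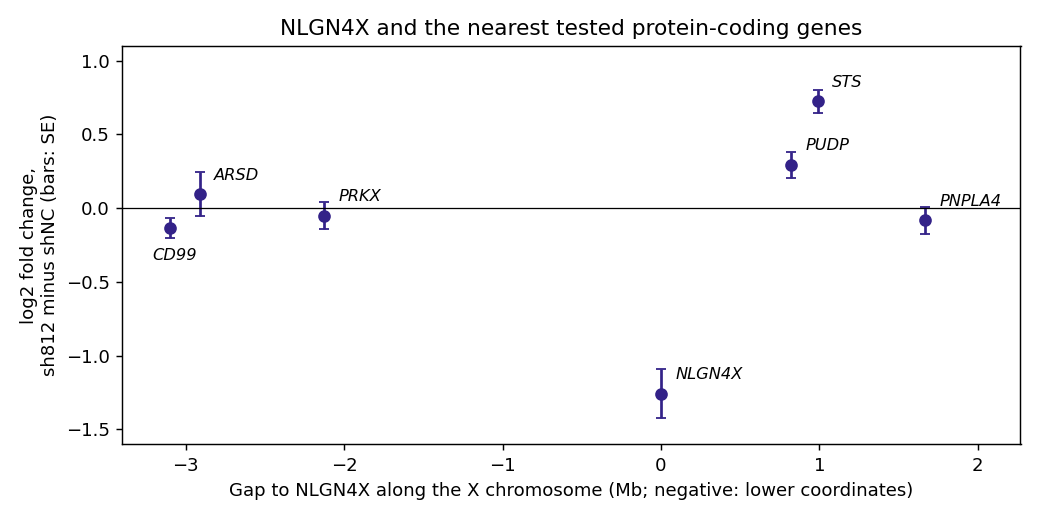
Log2 fold change of sh812 minus shNC (vertical axis, bars are SE) for NLGN4X and the 3 nearest tested protein-coding genes on each side, against the gap to NLGN4X in Mb (horizontal axis, linear). NLGN4X lies at -1.26, while its neighbours lie between -0.13 (CD99) and 0.72 (STS).

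NLGN1, known from excitatory synapses, was the tested member with a higher mean in sh812. It had 136 and 111 counts in shNC and 137 and 174 in sh812. Per library this was 3.59 and 3.51 CPM in shNC, and 3.90 and 4.86 CPM in sh812. The sh812 libraries both lay above the shNC libraries, and they differed from each other by more than the lower of them differed from shNC. The log2 fold change was 0.30 (SE 0.21) without a call, 0.14 when sh812 replicate 2 was left out and 0.45 when sh812 replicate 1 was. Its gene covers chromosome 3 from 173396284 to 174286644 on the plus strand. The antisense gene NLGN1-AS1 lies within it outside its exons and had at most 2 counts in a library.

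NLGN3, the neuroligin known from both kinds of synapse, was the least abundant neuroligin. It had 39 and 48 counts in shNC and 16 and 30 in sh812. Per library this was 1.03 and 1.52 CPM in shNC, and 0.456 and 0.838 CPM in sh812. The groups did not overlap, although the sh812 replicates differed from each other by 0.88 on the log2 scale, close to the difference between the groups. The fitted log2 change of -0.96 (SE 0.47) carried no call, and the value depended on the library left out. It was -0.59 without sh812 replicate 1, -0.66 without shNC replicate 2 and -1.47 without sh812 replicate 2. NLGN3 lies on chromosome X from 71144831 to 71171201 on the plus strand, with no overlapping gene.

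The neurexins were scarcer per length than the neuroligins NLGN2 and NLGN4X. NRXN3 had 175 and 116 counts in shNC and 112 and 113 in sh812, which is 4.61 and 3.67 CPM in shNC, and 3.19 and 3.16 CPM in sh812. The sh812 libraries were nearly equal and lay below both shNC libraries, which differed from each other by 0.33 on the log2 scale. The log2 fold change was -0.39 (SE 0.22) without a call, -0.21 without shNC replicate 1 and -0.53 without shNC replicate 2. NRXN2 had 6 and 2 counts in shNC and 4 in each sh812 library. It did not pass the low-count filter, its groups overlapped, and no fold change is given. NRXN3 is on chromosome 14 from 78170373 to 79868290 (plus strand) and NRXN2 on chromosome 11 from 64606174 to 64723188 (minus strand). The antisense gene models inside both had 0 counts in every library.

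All 5 tested members had groups that did not overlap, an arrangement that 53.6% of all tested genes showed. The 5 passed a filter on low counts that NRXN2 did not pass, so they do not stand for all members. Whether the change of NLGN4X differs from that of the other members was not tested.

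**Figure D2:**
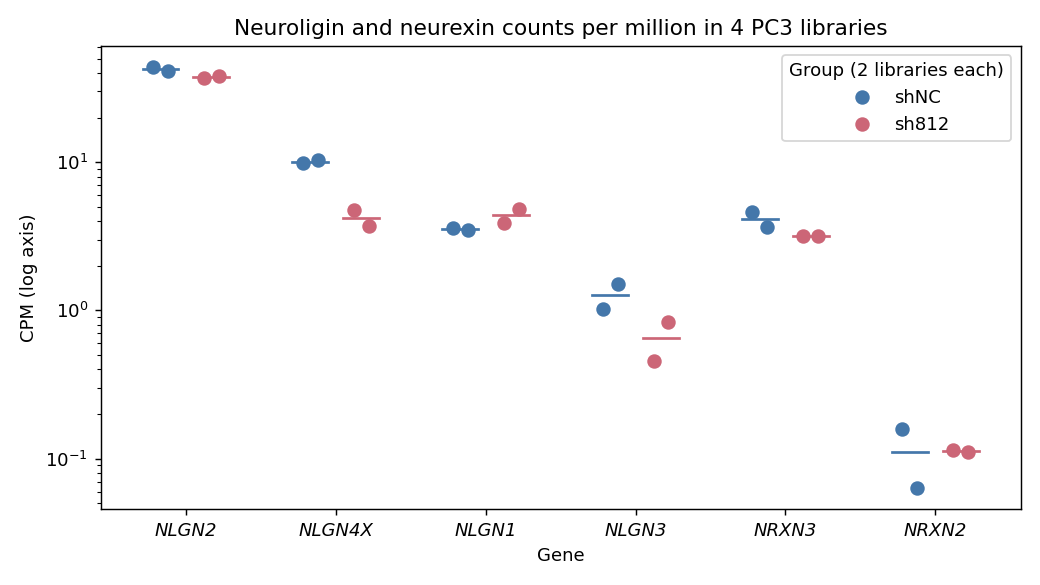
CPM (log axis) of the 6 members in each library, with shNC in blue and sh812 in red, and a short line at the mean of the 2 libraries of a group. NLGN4X drops from about 10.1 to 4.22 CPM, while NLGN2 stays between 36.8 and 43.9 CPM and NRXN2 lies near the bottom at 0.158 CPM or less.

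Levels were compared between genes per kb of exon, using the union of annotated exons. In shNC the order was NLGN2 (7.64 CPM per kb), NLGN4X (1.36), NLGN1 (0.350), NLGN3 (0.318), NRXN3 (0.267) and NRXN2 (0.0105). In sh812 it was NLGN2 (6.75 CPM per kb), NLGN4X (0.568), NLGN1 (0.432), NRXN3 (0.204), NLGN3 (0.162) and NRXN2 (0.0107). The levels of NLGN2 and NLGN4X were apart from their neighbours in shNC. Those of NLGN1, NLGN3 and NRXN3 lay close, and NLGN3 ranged from 0.257 to 0.379 CPM per kb in shNC, overlapping the range of the other two. In sh812 NLGN4X, at 0.639 and 0.496 CPM per kb, came close to NLGN1, at 0.385 and 0.479. The level per kb rests on which annotated exons PC3 cells use, which the table does not show.

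NLGN2 made up most of the summed neuroligin level in every library. Its share of the sum per kb was 80.4% and 77.7% in shNC, and 85.4% and 85.3% in sh812. The share of NLGN4X was 13.4% and 14.7% in shNC, and 8.23% and 6.16% in sh812. The sum itself was 9.84 and 9.50 CPM per kb in shNC, and 7.77 and 8.05 in sh812. Most of this difference in the sum came from the lower levels of NLGN2 and NLGN4X.

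**Figure D3:**
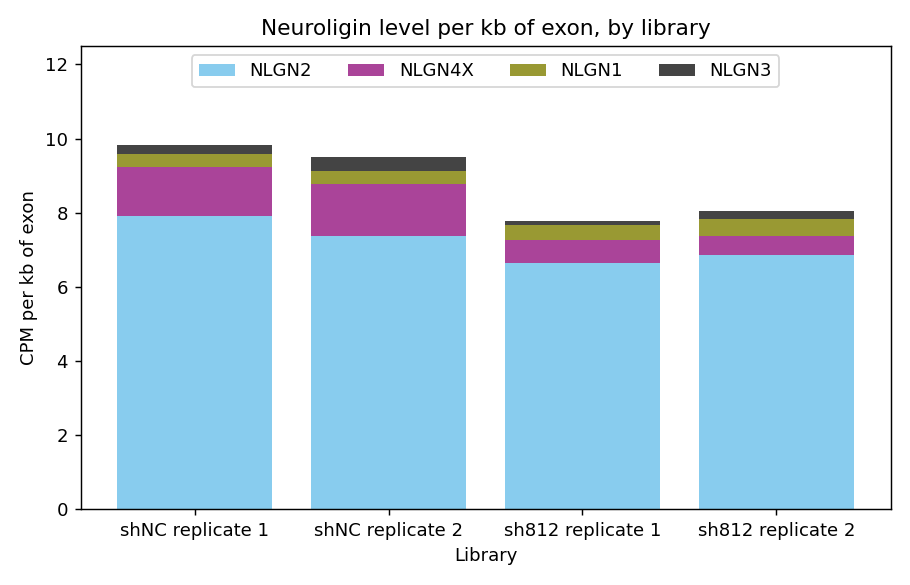
Stacked bars of the CPM per kb of exon (vertical axis, from 0) of the 4 neuroligins in each library (horizontal axis). NLGN2 fills 77.7% to 85.4% of each bar, and the NLGN4X segment is thinner in the sh812 libraries.

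Transcript length and the letters GGACT, a core form of the sequence in which N6-methyladenosine is written, were then read from one GENCODE 29 transcript per gene. The member transcripts ran from 3913 bases (NLGN3) to 8242 bases (NLGN1), against a median of 3214 bases over 13250 tested protein-coding genes. NLGN4X, at 5870 bases, was longer than 82.6% of these genes. With each library's trend on transcript length removed, its log2 fold change was -1.19. GGACT was searched on the transcript strand only, and 91.5% of the 13250 transcripts held it. NLGN4X held 3 matches (0.511 per kb, higher than in 21.9% of the genes). NLGN1 held 5 matches, NLGN2 6, NLGN3 4, NRXN2 6 and NRXN3 9, and the median over the genes was 0.932 per kb. The coding match nearest the stop codon is shown for NLGN4X, the member with the largest change, with the match in capitals and 10 bases on each side.
NLGN4X: ccgtcctcctGGACTggcatccgaa
This match ends 2154 bases before the stop codon. Of the 3 matches in NLGN4X, 2 lie in the coding sequence and 1 lies after it. A match is a string of letters and not a measured methylation site.

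The partner genes were 105 genes in 7 lists, written from general knowledge, of which 78 were tested. Of these, 10 (12.8%) had an adjusted p under 0.05, against 10.8% of all genes tested. Of the 78 genes, 9 (11.5%) were called lower and 1 (1.28%) higher, against 5.42% and 5.43% of all genes. The median log2 fold change of the 78 was -0.07, against -0.0056 over all genes. With each library's length trend removed, the partner median was -0.0086 and the median of all genes -0.0089, and the calls were 7 lower (8.97%) and 2 higher (2.56%), against 4.70% and 4.74% of all genes. The part of transcript length in the list values was not tested further. The counts per list below are small, and nothing is read from them.

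Of the neurexin ligands, 6 of 17 were tested and 2 (33.3%) were called, both lower (median log2 fold change -0.17). Over all genes tested, 5.42% were called lower. CLSTN3, a calsyntenin, had 31.4 ± 0.361 and 23.2 ± 3.55 CPM (SD, n = 2) in shNC and sh812 and fell by 0.43 on the log2 scale (SE 0.10, adjusted p = 0.0077 in edgeR). Without sh812 replicate 1 it was -0.29 and no longer called. ADGRL1, which encodes latrophilin-1, fell by 0.27 on the log2 scale (SE 0.08, adjusted p = 0.038 in edgeR), a call that was lost with the length trend removed (-0.18), with DESeq2 (-0.26) and without either sh812 library. DAG1, the gene of dystroglycan, was the most abundant ligand gene at 298 ± 5.08 and 285 ± 1.58 CPM (SD, n = 2), and was not called.

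Among other synaptic adhesion genes, 29 of 38 were tested and 2 (6.90%) were called, both lower (median -0.19). The share called lower over all genes was 5.42%. IL1RAP, which encodes the interleukin-1 receptor accessory protein and also binds PTPRD, was measured at 19.6 and 17.9 CPM in shNC and 11.7 and 11.1 in sh812. The sh812 libraries were lower by more than the replicates differed. IL1RAP fell by 0.72 on the log2 scale (SE 0.12, adjusted p = 0.00022 in edgeR). TENM2, a teneurin gene, had 26 and 18 counts in shNC and 4 in each sh812 library. The fitted change, -2.44 on the log2 scale with SE 0.73 (adjusted p = 0.032 in edgeR), rests on these few counts, and the call was lost without shNC replicate 1 and without either sh812 library. CLSTN1, another calsyntenin, had the highest level in CPM, 258 ± 6.74 and 252 ± 11.4 (SD, n = 2), and no call.

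The extracellular modulators were 4 genes, with 3 tested and 1 (33.3%) called lower, against 5.42% of all genes. THBS1, the thrombospondin gene, was the most abundant of them and had 300.2 ± 3.21 and 252.6 ± 0.431 CPM (SD, n = 2) in shNC and sh812. It fell by 0.25 on the log2 scale (SE 0.06, adjusted p = 0.0059 in edgeR), and the call was lost without either sh812 library. MDGA1 and MDGA2, named after their values were seen, whose products block the binding of neuroligins to neurexins, had log2 fold changes of -1.12 (SE 0.72) and 1.41 (SE 0.69) on at most 20 counts in a library, and neither was called.

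Of the intracellular scaffold genes, 23 of 28 were tested and 3 (13.0%) were called, all lower (median -0.06), against 5.42% of all genes. DLG1, a PDZ scaffold of the same family as PSD-95, had 92.4 and 84.6 CPM in shNC and 65.0 and 61.8 in sh812. Both sh812 libraries lay below both shNC libraries by more than the replicates differed. DLG1 fell by 0.48 on the log2 scale (SE 0.07, adjusted p = 7.0e-05 in edgeR). DLG4, the gene of PSD-95, fell from 18.3 ± 0.336 to 13.7 ± 0.227 CPM (SD, n = 2), by 0.41 on the log2 scale (SE 0.11, adjusted p = 0.018 in edgeR). This call was lost without either sh812 library and with the length trend removed (-0.34). SHANK2, a scaffold that links such complexes to the cytoskeleton, fell by 0.59 (SE 0.14, adjusted p = 0.0088 in edgeR), a call lost without either sh812 library. DLGAP4 had the highest level of the list, 126.2 ± 6.66 and 125.6 ± 1.24 CPM (SD, n = 2). CASK, the neurexin scaffold, was not called, at -0.21 on the log2 scale (SE 0.08, adjusted p = 0.090 in edgeR). GPHN, the gephyrin gene whose product binds NLGN2, stood at -0.05 (SE 0.07). CASK and GPHN are named here after their values were seen.

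Neuroligins and neurexins are released from the surface by sheddases, and their stubs are cut by gamma-secretase. All 10 genes of this list were tested, with 1 (10.0%) called higher and 1 (10.0%) lower (median -0.11). Over all genes these shares were 5.43% and 5.42%. Both code for gamma-secretase subunits. APH1A had 214.6 ± 24.4 and 259.6 ± 6.69 CPM (SD, n = 2) in shNC and sh812 and rose by 0.28 on the log2 scale (SE 0.07, adjusted p = 0.0090 in edgeR). Leaving out shNC replicate 1 gave a rise of 0.16, leaving out shNC replicate 2 one of 0.40, and the call was lost without either sh812 library. NCSTN, the nicastrin gene, fell by 0.20 (SE 0.07, adjusted p = 0.049 in edgeR), and its call was lost with RLE size factors, without a low-count filter, with DESeq2 and without either sh812 library.

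Of the 7 splicing regulator genes, 6 were tested and 0 were called in edgeR, while 1 had an unadjusted p under 0.05. In each case 1 gene was called higher by DESeq2 and by limma-voom, and by edgeR without a low-count filter, with a mean CPM of at least 1 and without either shNC library. Which gene held the call in each alternative is not shown here. The gene with an unadjusted p under 0.05 in the main edgeR fit was KHDRBS1, named after its values were seen. KHDRBS1 encodes SAM68, a regulator of neurexin splicing. Its value was 0.17 on the log2 scale, with SE 0.06 (adjusted p = 0.053 in edgeR). PTBP1 had the highest level, 446 ± 8.91 and 476 ± 5.45 CPM (SD, n = 2).

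IL1RAP and DLG1 were the 2 called partner genes whose call and direction held under all 13 alternatives tried for them.

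**Figure D4:**
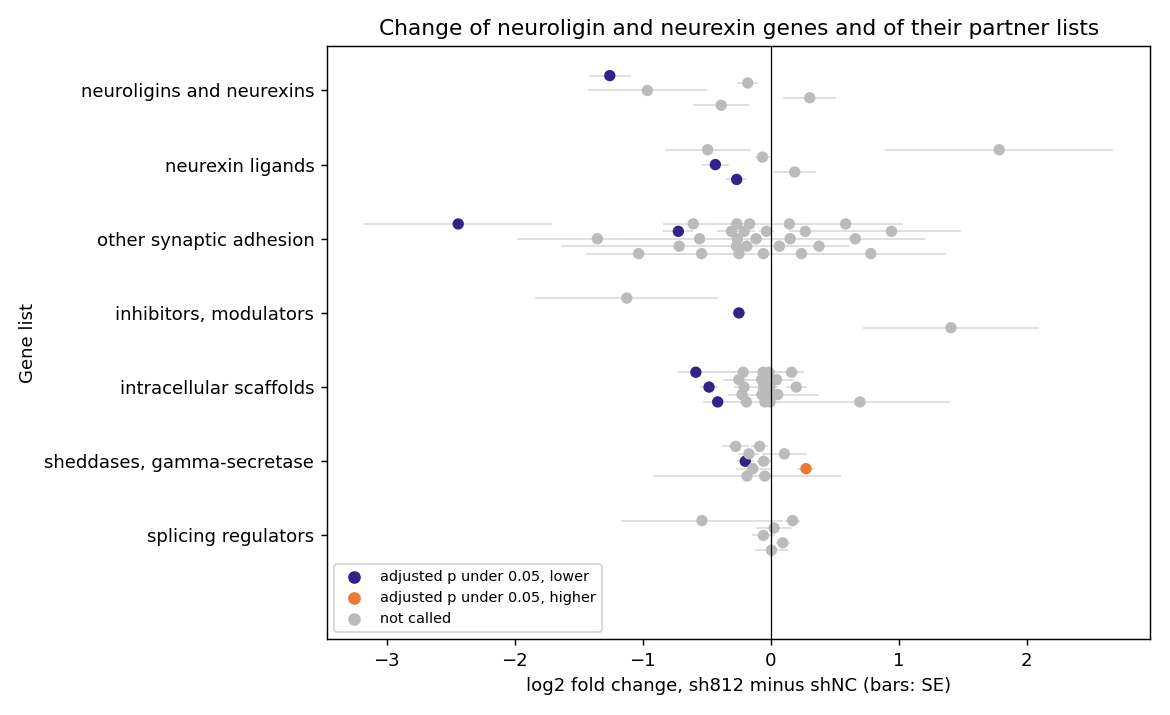
Log2 fold change of sh812 minus shNC (horizontal axis, bars are SE) for the 5 tested members and the tested genes of 6 partner lists (rows). Dark points are genes called lower, the orange point is APH1A, the 1 partner gene called higher, and grey points were not called.

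The profile over the 4 libraries was compared between NLGN2, the most abundant member, and 10419 other protein-coding genes with a mean of at least 5 CPM. The nearest by Euclidean distance of centred log2 CPM were ZBTB39 (0.0095), ZBTB4 (0.014) and LIMA1 (0.015). Their log2 fold changes were -0.17, -0.18 and -0.18, close to that of NLGN2 because of how they were chosen. None was called. With 4 libraries such likeness is a description of these values.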

How the data were processed

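The authors deposited 1 table of raw counts per gene, with an Ensembl identifier, name and gene type, for 4 PC3 libraries. Per the submitters' processing notes, fastp, STAR 2.7.1a, featureCounts and DESeq2 were used with hg38. Which annotation was counted, and whether strand was used, is not given in the sources used here, so reads from opposite strands may share a gene. Per the labels' protocols the libraries keep strand and were read as pairs of 150 bases.

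Testing used R 4.3.3 and edgeR 4.0.16 on the counts of all 4 libraries (TMM scaling, the filterByExpr filter, the quasi-likelihood test, a prior count of 0.125), adjusted by Benjamini-Hochberg over 16802 genes. The SE was derived from the F statistic. CPM was computed from the deposited counts with TMM-adjusted library sizes. Gene models, lengths and sequences came from GENCODE 29 (GRCh38), matched by Ensembl identifier. The members and lists were chosen with earlier results of these data known. Genes named are METTL3, the members, called partner genes, the most abundant gene of each list and the nearest profiles, and other names, those of cell type markers and neighbouring genes among them, were chosen after their values were seen. Some results that this rule selects are not reported here.

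Alternatives were RLE, upper quartile and library-size scaling, no filter, a mean CPM of at least 1, DESeq2 1.42.0, limma-voom (limma 3.58.1), the replicate block, each library left out, a prior count of 2, and removal of each library's length trend (lowess, span 0.3). The method was tested on simulated counts for this comparison with 16450 genes. Of 99 tested genes changed by log2 0.5, 58.6% were called, and of 97 changed by log2 1, 77.3%. Of 147 calls, 14 were of unchanged genes, a larger share than the threshold of 0.05 aims for. Counts were drawn once, with far fewer changed genes than the 1822 called in the data, so these rates may not hold there. Within groups, the chi-square statistic per gene was 8.43 (shNC) and 4.51 (sh812), above sampling noise, so each library counted as 1 replicate.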

Additional observations from a re-analysis of the deposited data

How the results depend on the processing

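METTL3 kept its direction and its call in each of 14 alternatives, from -2.52 to -2.33 on the log2 scale. The log2 fold change of NLGN4X was lowest without sh812 replicate 1 (-1.45) and highest without sh812 replicate 2 (-1.09), and nothing is read from its call, since the gene was selected on this fold change. NLGN1, NLGN2 and NRXN3 kept their direction without a call in 14 alternatives each and NLGN3 in 12, since DESeq2 gave it no adjusted p and a mean CPM of at least 1 left it out. Their values without one library ran from 0.14 to 0.45 (NLGN1), -0.22 to -0.13 (NLGN2), -1.47 to -0.59 (NLGN3) and -0.53 to -0.21 (NRXN3).

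Library size alone gave 561 genes called higher and 1328 lower, against 912 and 910. Without one library, from 130 to 1743 genes were called higher and from 183 to 1583 lower, and the fewest calls came without either sh812 library. With a lone library in a group, that library is assumed to vary like the other group. Among partner genes, 2 were called higher, in place of 1, without a low-count filter, with a mean CPM of at least 1, with the length trend removed, with limma-voom and with DESeq2. Without one library, 0 to 4 were called higher and 2 to 15 lower. The cause was not tested. Over the 10 called partner genes, 106 of 128 values kept the call, 22 lost it and 0 changed direction. The labels number replicates 1 and 2 in both groups, and across 16802 genes the deviations of libraries with the same number correlated at r = 0.016, so the numbers were not taken as pairs. The replicate block gave 1003 higher and 998 lower calls, NLGN4X had a log2 fold change of -1.26, and no call of a member or partner gene named here changed. Depth limits NRXN2, NLGN3, TENM2 and other genes with few counts.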
